A study of Mus musculus with 27 samples.

Results

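Axon guidance genes encode the signals that steer a growing axon and the receptors that read them. Here they were taken as the protein-coding genes named Sema with a digit, Plxn, Epha, Ephb, Efna, Robo, or Unc5, together with Efnb1, Efnb2, Nrp1, Nrp2, Slit1, Slit2, Slit3, and Dcc. The rule found 66 of the 54532 genes in the deposited table. Of these, 59 had a mean of at least 0.5 FPKM (fragments scaled by exon length and a factor for each library) over the 27 libraries. The 7 genes below this mean were Epha8, Epha10, Ephb1, Robo3, Robo4, Sema4a, and Unc5cl. Unc50 and Unc5cl carry the Unc5 prefix but are not netrin receptors, and they are counted as members only because the rule takes names.

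Semaphorins are secreted or membrane-bound ligands that act mostly through plexins, with neuropilins as co-receptors for the secreted class 3. Ephrins are ligands tethered to the cell surface, and their Eph receptors are receptor tyrosine kinases. The A class of ephrins is held by a lipid anchor and the B class spans the membrane. Slits repel axons through Robo receptors, and netrins attract through DCC and repel through UNC5 receptors. Many of these molecules are also used outside the nervous system, in vessels, bone, and mesenchyme, so fibroblasts express a set of their own.

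The cells were mouse embryonic fibroblasts (MEFs) from mid-gestation embryos without head and heart, with 4 embryos pooled per dish. Wild-type (WT) mice and mice with the label Per1-/- or Per2-/- gave the cells, and each of the 9 groups of genotype and day had 3 libraries. All groups received lentiviruses for reprogramming factors, among them Brn2 (Pou3f2) and Myt1l, under a doxycycline-controlled promoter, which turn MEFs into induced neurons (iNs), 3 days before day 0. Day 0 cells were in serum medium without doxycycline, whereas cells of days 2 and 4 were in serum-free medium with doxycycline and bFGF, so the factors, the medium, and the time in culture cannot be told apart between day 0 and day 2. The cultures contained some macrophages besides fibroblasts.

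Depth was between 15815013 and 24264097 fragments per library, and the values solved to whole fragments. Per1 was at 3.23 to 4.96 FPKM in Per1-/- cells on day 0 and at 5.44 to 6.33 FPKM in WT cells, a difference that was not called (log2 difference -0.50). Per2 was at 1.87 to 2.00 FPKM on day 0 under the Per2-/- label and at 0.817 to 0.957 FPKM in WT cells (1.03, adjusted p = 0.00114 in limma), so Per2 was higher where the label says that it is deleted. RNA levels do not show whether protein is made, and the study checked the loss of either PER protein by western blotting, a measure that runs with the labels and was not analysed here. These libraries are named by their label throughout. Pou3f2 was at most at 0.0278 FPKM on day 0 and between 228 and 770 FPKM on day 2, with viral and endogenous transcripts counted together. The sum of 15 neuron markers was 27.6 to 49.8 FPKM on day 0, 111 to 156 on day 2, and 121 to 222 on day 4, while Rbfox3, a marker of mature neurons, stayed at or below 0.136 FPKM. The sum of 12 fibroblast markers was also higher on the later days, at 1735 to 3136 FPKM on day 0, 2855 to 4538 on day 2, and 4082 to 5608 on day 4. Single fibroblast markers moved in both directions from day 0 to day 2. The sum of 10 endothelial markers was 3.72 to 12 FPKM over all libraries, with Pecam1 at or below 0.156 FPKM and Cldn5 at or below 0.0996 FPKM. Of the 4 that were tested, Tek rose and Kdr fell from day 0 to day 2 in each genotype. The sum of 8 muscle markers was 20.2 to 101 FPKM on day 0 and 12.9 to 23.0 FPKM on day 2, and single markers moved in both directions. Of the 6 tested, 3 rose and 1 fell in WT cells (Myod1, Myh3, and Actc1 up, Des down), 0 rose and 2 fell in Per1-/- cells, and 0 rose and 1 fell under the Per2-/- label.

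Most axon guidance members that changed did so between day 0 and day 2, and most of those rose. In WT cells 32 of the 59 tested members rose and 5 fell from day 0 to day 2, where 20.8% of all 14932 tested genes rose and 19.7% fell. Among members in Per1-/- cells 31 rose and 5 fell, beside 20.8% and 18.8% of all genes. Of the members in the libraries with the Per2-/- label, 29 rose and 5 fell, beside 18.7% and 16.8%. Calls needed a Benjamini-Hochberg adjusted p in limma of no more than 0.05 together with a change of at least 0.58 in size on the log2(FPKM + 0.1) scale. The median log2 fold change of the members was 0.81, 0.90, and 0.60 in the 3 genotypes, and that of all tested genes was -0.01 in each. These medians depend on the scaling. With FPKM rescaled to a common sum per library they were 1.23, 1.27, and 0.92 for the members and 0.41, 0.38, and 0.31 for all tested genes. The member medians include genes that passed the filter only through the later days, named in the next paragraph, so nothing is read from them. Because these are bulk samples, fewer cells of a type and less RNA per cell cannot be told apart. Of 19 macrophage markers, 6, 12, and 2 also rose in WT cells, Per1-/- cells, and under the Per2-/- label between these days.

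The filter used the mean over all days, so a gene that was low on day 0 could pass it only through the later days, where it is high. This applied to 8 members with a mean under 0.5 FPKM on day 0, Dcc, Epha5, Epha6, Plxnb3, Sema3g, Sema5b, Slit1, and Unc5d. They account for 7, 8, and 7 of the rises in the 3 genotypes, and nothing is read from these counts or from the adjusted p-values of their rises given below. All of them but Unc5d are among the 26 members listed next. Of all 1229 genes that were under 0.5 FPKM on day 0, 72.6%, 72.5%, and 67% rose. The other 51 members held 25, 23, and 22 rises and 5 falls in each genotype. Of all 13703 genes with a day 0 mean of at least 0.5 FPKM, 16.1%, 16.1%, and 14.4% rose and 21.5%, 20.5%, and 18.3% fell.

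Across all 3 genotypes the same 26 members rose and the same 5 fell, and 2320 and 2023 of all tested genes did so. The 26 were Sema3g, Sema4g, Sema5a, Sema5b, Sema6a, Sema6b, Sema6c, Sema6d, Plxna2, Plxnb1, Plxnb3, Plxnc1, Epha3, Epha4, Epha5, Epha6, Epha7, Ephb4, Ephb6, Efna2, Efna3, Slit1, Robo1, Robo2, Dcc, and Unc5a. The 5 were Epha1, Epha2, Unc5b, Nrp1, and Sema7a. Another 17 members were called in no genotype and 11 in 1 or 2 of them. When FPKM was rescaled to a common sum per library, the median of all genes was 0.41, 0.38, and 0.31 instead of -0.01 in each genotype. The calls of all genes in WT cells became 5564 up and 1253 down instead of 3101 and 2944. In that scaling 41, 43, and 36 members rose, beside 37.3%, 35.6%, and 31% of all tested genes in the 3 genotypes. Of the members 4, 3, and 3 fell, beside 8.39%, 7.92%, and 8.48% of all genes. The fall of Nrp1 was then not called in any genotype, and that of Sema7a was called only in WT cells. The other 29 of the 31 members kept their calls in all 3 genotypes.

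**Figure D1:**
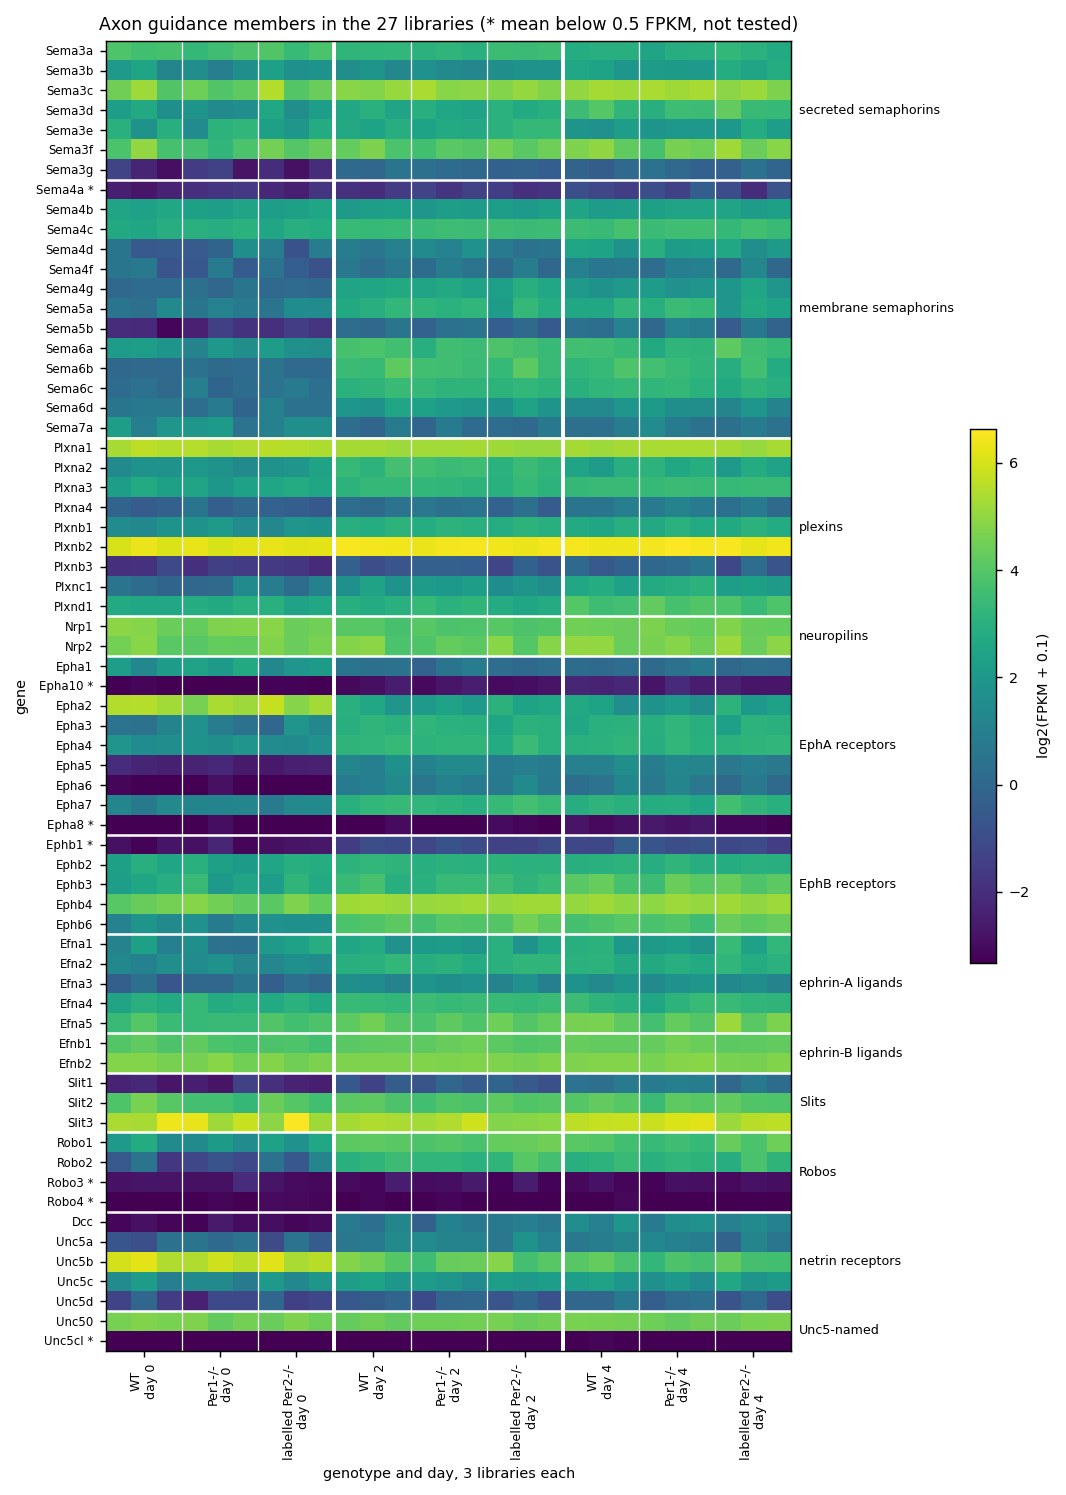
Level of the 66 members in each library, as log2(FPKM + 0.1), with libraries in columns by day and genotype and genes in rows by role. The columns of day 2 differ from those of day 0 in the EphA, Robo, and membrane semaphorin rows, and within a day no member was called between the 3 genotypes.

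Among the ligands, the membrane-bound semaphorins had the most calls. Of 12 tested, 8 rose in WT cells, 7 in Per1-/- cells, and 8 under the Per2-/- label, and 1 fell in each genotype. Sema6b (ENSMUSG00000001227, chromosome 17 from 56123085 to 56140343 of GRCm38), a transmembrane class 6 semaphorin, was at 0.901, 0.974, and 0.955 FPKM in WT cells on day 0 and at 10.8, 10.6, and 17.9 FPKM on day 2. Its 9 libraries of day 2 ranged from 10.1 to 17.9 FPKM and did not overlap with the 9 of day 0, which ended at 1.32 FPKM. The log2 fold change was 3.61 (standard error 0.24, adjusted p = 1.2e-10) in WT cells, with 3.35 for Per1-/- cells and 3.4 under the Per2-/- label.

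Sema6c rose in WT cells from 1.03, 1.21, and 0.974 FPKM to 8.01, 8.77, and 10.4 FPKM (log2 fold change 2.96, standard error 0.19). Sema5b, a class 5 semaphorin with thrombospondin repeats, was at most at 0.266 FPKM in any library of day 0 and between 0.606 and 1.34 FPKM on day 2, but under the Per2-/- label its call was lost with a pseudocount of 1 FPKM. The other risers of the class were Sema4g, Sema5a, Sema6a, and Sema6d, with log2 fold changes of 1.36 to 2.52 over the 3 genotypes. All 4 class 6 genes, Sema6a to Sema6d, were called in each genotype. Sema7a, the member held by a lipid anchor, went the other way. It was at 4.61, 1.82, and 3.58 FPKM in WT cells on day 0 and at 1.11, 0.842, and 1.62 FPKM on day 2 (log2 fold change -1.36, adjusted p = 0.0055), but its 9 libraries of day 0 and of day 2 overlapped. Its Per1-/- call was lost without day 0 replicate 1, day 0 replicate 2, or day 2 replicate 1 (adjusted p = 0.0504 to 0.0726). In the libraries with the Per2-/- label it was lost without day 0 replicate 2 or 3 or day 2 replicate 1 or 2 (adjusted p = 0.0608 to 0.0837).

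The secreted class 3 semaphorins had fewer calls. Of 7 tested, 1 rose in WT cells and 3 in each of the other genotypes, and none fell. Sema3g alone was called in all 3 genotypes, from a highest value of 0.313 FPKM on day 0 to between 0.697 and 1.34 FPKM on day 2 (log2 fold change 2.35 in WT cells, standard error 0.38, adjusted p = 2.07e-05). Sema3a, the classical collapsing factor for growth cones, had a log2 fold change of -0.52 in WT cells (adjusted p = 0.0040), short of the minimum size for a call. Sema3c was the most abundant of the class with 15 to 45.3 FPKM on day 0 and was called only in Per1-/- cells. Membrane-bound genes made up 28.5% ± 6.80 (SD, n = 3) of the summed semaphorin FPKM in WT cells on day 0 and 49.2% ± 3.63 on day 2. The shares were 33.8% ± 3.06 and 49.8% ± 2.65 in Per1-/- cells and 28.2% ± 6.77 and 46.7% ± 3.20 in the libraries with the Per2-/- label.

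Of the semaphorin receptors, 5 of 9 plexins rose in WT cells, 5 for Per1-/- cells, and 4 under the Per2-/- label, and none fell. Plxnb2 and Plxna1 were the most abundant, at 65.6 to 81.6 and 39.7 to 49.4 FPKM on day 0, and neither was called. Plxna2, a receptor for class 3 and class 6 semaphorins, was at 2.52, 3.34, and 3.37 FPKM in WT cells on day 0 and at 10.1, 8.55, and 13.0 FPKM on day 2, with no overlap between the 9 libraries of each day. Its log2 fold change was 1.74 (standard error 0.23, adjusted p = 1.46e-06) in WT cells, 1.82 for Per1-/- cells, and 1.21 under the Per2-/- label. Plxnb1, a receptor for SEMA4D, rose from 2.34 to 4.03 FPKM over the 9 libraries of day 0 to 7.14 to 8.61 FPKM on day 2.

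Plxnc1, the receptor for SEMA7A, rose in WT cells from 1.32, 1.05, and 0.83 FPKM to 3.12, 5.22, and 3.25 FPKM (log2 fold change 1.75, adjusted p = 2.38e-05), opposite to its ligand gene. In the libraries with the Per2-/- label its log2 fold change of 0.94 was not called without day 0 replicate 2 (0.70, adjusted p = 0.0613). Plxnb3 was low, at most 0.743 FPKM on day 2, and lost its call in WT cells without replicate 1 of day 0 or day 2 (adjusted p = 0.0522 and 0.0625) and in the libraries with the Per2-/- label without day 2 replicate 2 (adjusted p = 0.0677). With a pseudocount of 1 FPKM it was called in 0 of 3 genotypes. Of the neuropilins, Nrp1 fell in WT cells from 30.2, 28.5, and 20.9 FPKM to 16.4, 16.3, and 13.3 FPKM (log2 fold change -0.77, adjusted p = 0.00033), but under the common sum the change was -0.34 and not called. In Per1-/- cells without day 0 replicate 2 or 3, and in the libraries with the Per2-/- label without day 0 replicate 1, its change was under the minimum size (-0.58, -0.57, and -0.49). Nrp2 had a log2 fold change of 0.01, -0.07, and -0.02 in the 3 genotypes, and the intervals of the differences are drawn in the plot of changes from day 0 to day 2.

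**Figure D2:**
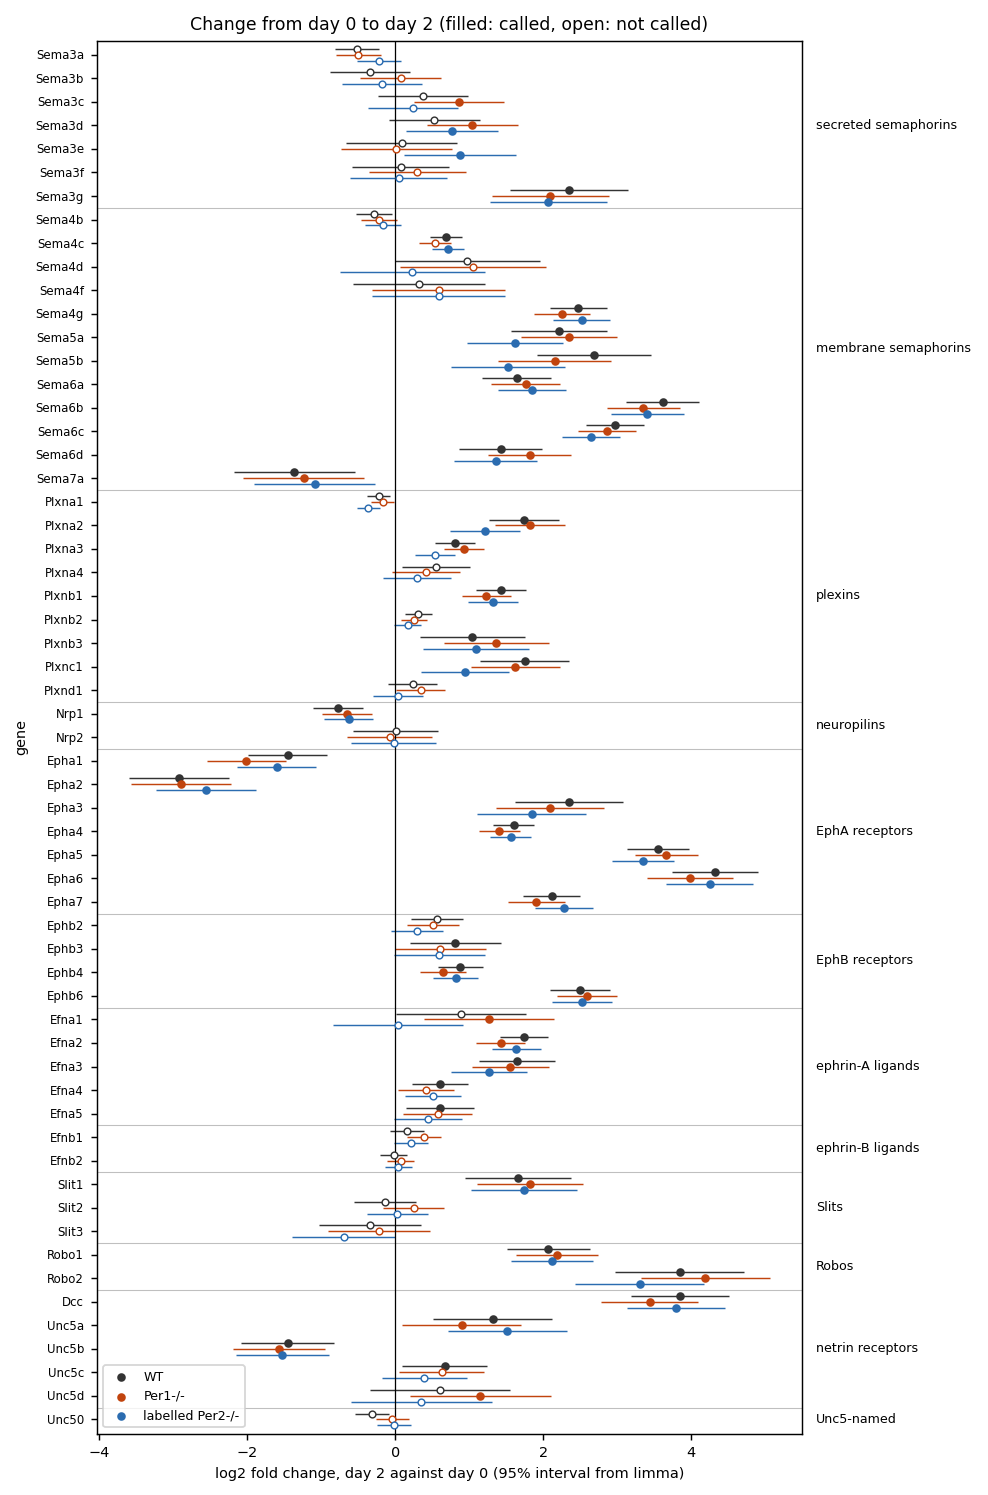
Log2 fold change of the 59 tested members between day 0 and day 2 in WT cells (black), Per1-/- cells (orange), and the libraries with the Per2-/- label (blue), with 95% intervals from limma, where filled points were called. Epha6, Robo2, Dcc, Sema6b, and Epha5 lie above 3 in all 3 genotypes and Epha2 below -2.5, whereas Nrp1 and Sema7a fell but, when FPKM was rescaled to a common sum, Nrp1 was called in 0 of 3 genotypes and Sema7a only in WT cells.

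The EphA receptors changed in composition. All 7 tested genes of the class were called in all 3 genotypes, 5 up and 2 down. Of the 5, Epha5 and Epha6 passed the filter only through the later days. Epha2 (ENSMUSG00000006445, chromosome 4 from 141301240 to 141329384), an Eph receptor widely expressed outside the nervous system, was at 44.7, 46.4, and 38.3 FPKM in WT cells on day 0 and at 7.85, 6.20, and 3.57 FPKM on day 2. The 9 libraries of day 0 spanned 24.1 to 53.4 FPKM and those of day 2 spanned 3.57 to 8.34 FPKM. Its log2 fold change was -2.92 (standard error 0.33, adjusted p = 1.65e-07) in WT cells, -2.90 for Per1-/- cells, and -2.55 under the Per2-/- label. Epha1, which overlaps Zyx on the other strand, fell from 2.40 to 6.5 FPKM over the 9 libraries of day 0 to 0.775 to 1.69 FPKM on day 2.

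Epha6 (ENSMUSG00000055540, chromosome 16 from 59653483 to 60605531) had the largest log2 fold change among the members in WT cells and in the libraries with the Per2-/- label. It had 1, 3, and 0 fragments in total in the 3 libraries of WT cells, of Per1-/- cells, and of those labelled Per2-/- on day 0. On day 2 it had between 155 and 262 fragments in every library, or 1.60, 1.85, and 2.51 FPKM in WT cells. Against a floor of 3 fragments over the 3 libraries of the group, it was at least 175-fold higher on day 2 in the libraries with the Per2-/- label. The fitted log2 fold changes of 4.31, 3.98, and 4.25 depend on the pseudocount, and with Epha6 at its bound the median of the members under the Per2-/- label was 0.60.

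Epha5 was at 0.141, 0.104, and 0.0834 FPKM in WT cells on day 0 and at 2.21, 1.89, and 3.06 FPKM on day 2 (log2 fold change 3.55, standard error 0.20, adjusted p = 1.98e-11). Epha3 rose from 1.28, 1.26, and 2.14 FPKM to 7.46, 8.95, and 8.09 FPKM (log2 fold change 2.35, adjusted p = 7.68e-06). Epha4, a receptor that binds ephrins of both classes, and Epha7 rose by 1.60 and 2.11 on the log2 scale in WT cells. All 5 had no library of day 2 within the range of day 0. The share of all tested genes that separate in this way is not given here, so nothing is read from this count. The share of Epha2 in the summed FPKM of the EphA class was 80.2% ± 4.49 (SD, n = 3) for day 0 in WT cells, then 15.4% ± 5.99 (day 2) and 14.8% ± 6.11 (day 4). The class as a whole summed to 53.7 ± 3.32 FPKM on day 0 and 38.3 ± 0.99 FPKM on day 2. The Epha2 shares of Per1-/- cells on days 0 and 2 were 71.5% ± 7.75 and 12.3% ± 1.57, and those of the libraries with the Per2-/- label were 77.4% ± 9.19 and 17.5% ± 5.49.

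The EphB receptors and the ephrin-A ligands also held members that rose. The median log2 fold changes in WT cells were 0.85 (EphB), 0.89 (ephrin-A), and 0.07 (Efnb1 and Efnb2). The EphA median of 2.11 includes Epha5 and Epha6, which passed the filter only through the later days, and is not compared with these. Of 4 tested EphB genes 3, 2, and 2 rose in the 3 genotypes, and none fell. Ephb6, a receptor whose kinase domain is inactive, was at 2.05, 3.46, and 2.60 FPKM in WT cells on day 0 and at 13.8, 15, and 17.5 FPKM on day 2 (log2 fold change 2.49, standard error 0.19, adjusted p = 1.37e-09), and Ephb4 rose from 16.6, 20.1, and 23.2 to 36.6, 38.4, and 34.9 FPKM (0.88). Without day 0 replicate 3 of Per1-/- cells, the change of Ephb4 was 0.49, under the minimum size. Ephb2 was not called in any genotype and Ephb3 only in WT cells. Of 5 ephrin-A ligands, 4, 3, and 2 rose and none fell, and Efna2 and Efna3 rose in all 3 genotypes. Efna4 and Efna5 were called only in WT cells (log2 fold change 0.61 and 0.60, adjusted p = 0.0067 and 0.0229). Efna2 was at 2.42, 1.97, and 2.95 FPKM in WT cells on day 0 and at 7.68, 7.79, and 9.56 FPKM on day 2 (log2 fold change 1.74, adjusted p = 1.04e-08), and Efna3 was at 0.691, 1.17, and 0.533 and then at 2.97, 2.78, and 2.11 FPKM. The ephrin-B ligands Efnb1 and Efnb2 were not called in any genotype. Efnb3, the remaining ephrin-B gene, is not taken by the rule, and its rise in WT cells is given with the further cues below. Efnb2 was at 22 to 29.3 FPKM on day 0 and at 24.1 to 26.9 FPKM on day 2, with a log2 fold change of -0.02 in WT cells.

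For the Slit and Robo genes, the receptors rose while the abundant ligands were not called. Robo2 (ENSMUSG00000052516, chromosome 16 from 73891839 to 74411825) was at 0.579, 1.31, and 0.205 FPKM in WT cells on day 0 and at 7.99, 9.13, and 11.4 FPKM on day 2. Its log2 fold change was 3.84 (standard error 0.42, adjusted p = 1.19e-07) in WT cells, 4.19 for Per1-/- cells, and 3.30 under the Per2-/- label. Robo1 rose in WT cells from 3.93, 6.85, and 2.52 FPKM to 17.5, 17.8, and 17.1 FPKM (log2 fold change 2.07, adjusted p = 1.22e-06). Robo3 and Robo4 were at or below 0.138 FPKM in every library. Slit3 and Slit2 were already at 30.2 to 96.1 and 9.84 to 24.4 FPKM on day 0 and were not called. Slit1 was at 0.0976, 0.114, and 0.0505 FPKM in WT cells on day 0 and at 0.567, 0.293, and 0.669 FPKM on day 2 (log2 fold change 1.66, adjusted p = 0.00031), a call that was lost in each genotype with a pseudocount of 1 FPKM (0.47 in WT cells).

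Promoter sequences are shown for Robo2 and Sema6d, the members that rose in all 3 genotypes and hold CACGTG. This is the E-box of CLOCK/BMAL1, the activator that PER proteins repress, and it reads the same on both strands. Each line gives the 250 bases before a start site, taken from RefSeq on GRCm38.p6, with the E-box in capitals.
Robo2, distal start, chr16:75447294-75447543, minus strand: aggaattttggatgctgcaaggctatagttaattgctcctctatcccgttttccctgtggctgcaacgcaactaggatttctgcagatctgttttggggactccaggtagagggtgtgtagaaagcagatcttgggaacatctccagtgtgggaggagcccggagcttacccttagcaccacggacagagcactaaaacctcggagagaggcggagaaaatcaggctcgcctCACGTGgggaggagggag
Sema6d, chr2:124089719-124089968, plus strand: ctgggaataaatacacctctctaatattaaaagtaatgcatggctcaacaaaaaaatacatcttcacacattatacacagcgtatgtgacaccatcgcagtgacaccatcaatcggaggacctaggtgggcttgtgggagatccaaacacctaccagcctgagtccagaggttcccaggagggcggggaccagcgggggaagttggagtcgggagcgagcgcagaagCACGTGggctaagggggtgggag
The deposited Robo2 gene ends at 74411825 and does not reach this distal start. The E-box of Robo2 begins 18 bases before this start site and that of Sema6d 23 bases before. RefSeq promoters of 300 bases (250 before and 50 after each start) were found for 58 of the 66 members. CACGTG was in at least 1 promoter of 5 of these 58 members (8.62%) and of 2187 of all 27025 genes (8.09%), and in 2 of the 23 with a promoter among those that rose in all 3 genotypes. The share of the members was thus near that of all genes, and a match of letters is a description, not a binding site.

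The netrin receptors also changed in composition. Unc5b (ENSMUSG00000020099, chromosome 10 from 60762593 to 60831581), which is also a vascular guidance receptor, was at 63.6, 75.8, and 43.7 FPKM in WT cells on day 0 and at 27.2, 23.6, and 16.0 FPKM on day 2. Its log2 fold change was -1.45 (standard error 0.30, adjusted p = 0.00029) in WT cells, -1.57 for Per1-/- cells, and -1.52 under the Per2-/- label, and the 9 libraries of day 2 ended at 28.5 FPKM, below the lowest of day 0 at 41.7 FPKM. Dcc had 1 to 8 fragments per library on day 0 and 139 to 350 on day 2. In FPKM it was at 0.0130, 0.0359, and 0.0124 in WT cells on day 0 and at 1.65, 1.15, and 2.23 on day 2 (log2 fold change 3.85, adjusted p = 2.67e-09).

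Unc5a, which overlaps Hk3 on the other strand, rose from 0.542, 0.441, and 1.22 FPKM to 1.44, 1.67, and 2.51 FPKM in WT cells (log2 fold change 1.32, adjusted p = 0.0058). Its Per1-/- call was lost without any one of the 6 libraries (adjusted p = 0.0606 to 0.145). Unc5c was called only in WT cells and Unc5d only in Per1-/- cells. Unc5b made up 93.5% ± 1.01 (SD, n = 3) of the summed netrin receptor FPKM for day 0 in WT cells, then 70.8% ± 7.03 (day 2) and 61.4% ± 5.68 (day 4). Reads of a gene and of a partner on the other strand cannot be told apart in these nondirectional libraries, which concerns 5 members, Sema4c, Epha1, Epha5, Epha7, and Unc5a.

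**Figure D3:**
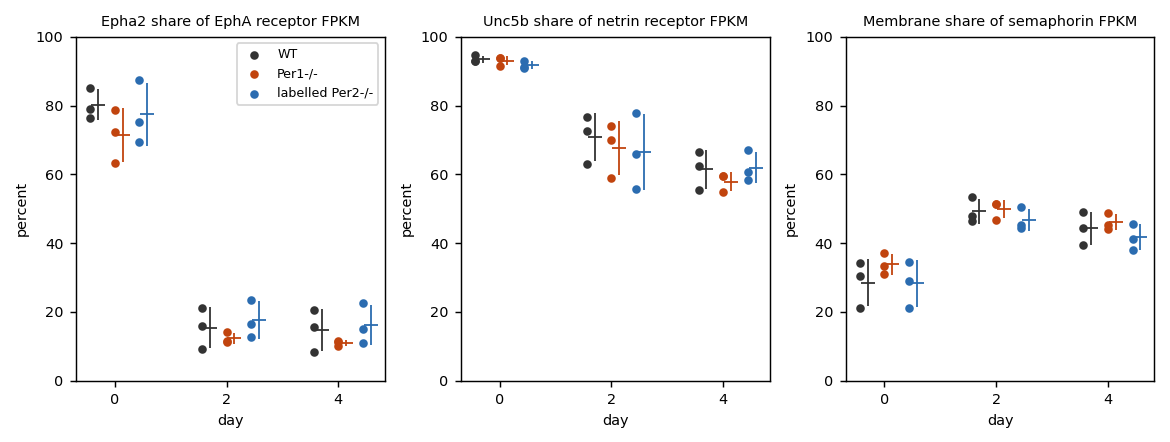
Percent of the summed FPKM of the EphA receptors held by Epha2, of the netrin receptors by Unc5b, and of the semaphorins by the membrane-bound genes, on days 0, 2, and 4, where points are libraries and bars are the mean and SD of 3. The Epha2 share lies between 63.3% and 87.5% on day 0 and between 8.31% and 23.5% on days 2 and 4.

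Genes that work with the members were examined in 3 lists. These genes passed the same filter, and a gene low on day 0 could pass it only through the later days. Draxin is such a gene by its WT values below. The list counts were not split by the level on day 0, so nothing is read from them. In WT cells 72.6% of all genes under 0.5 FPKM on day 0 rose, beside 16.1% of the others. Of 15 tested netrins and further cues and receptors, 8 rose and 2 fell in WT cells from day 0 to day 2, where 20.8% and 19.7% of all tested genes did, with 8 and 2 in Per1-/- cells and 7 and 2 in the libraries with the Per2-/- label. The largest rise was that of Draxin, a secreted repellent that binds DCC and netrin, from 0.0707, 0.0651, and 0.0383 FPKM to 7.37, 6.18, and 9.31 FPKM in WT cells (log2 fold change 5.6, standard error 0.35). Ntng1 and Ntng2, netrins anchored to the membrane, rose by 3.36 and 2.87 on the log2 scale in WT cells, and Efnb3, the third ephrin-B gene, by 2.34. Ntn4 fell from 19.1, 15.5, and 17.0 FPKM to 7.72, 6.36, and 6.20 FPKM (log2 fold change -1.34), and Cxcl12, a chemokine that guides migrating cells, had a log2 fold change of -1.07 (adjusted p = 0.0040).

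Of 28 cytoplasmic effectors, 7 rose and 5 fell in WT cells, 7 and 4 for Per1-/- cells, and 6 and 5 under the Per2-/- label. Their median log2 fold change in WT cells was 0.03, and their counts were near the background of 20.8% and 19.7% of all genes, so the values below describe single genes and not the list. Dpysl5 and Dpysl4, of the CRMP family that relays semaphorin signals to the cytoskeleton, rose by 4.31 and 2.72 on the log2 scale in WT cells. Ablim1 and Vav3 rose by 1.51 and 1.04. Rnd1, a small GTPase that binds plexins, had a log2 fold change of -2.81, Mical2, an actin-oxidizing enzyme, of -1.85, Srgap1, which binds Robo receptors, of -1, and Gipc1 of -0.84. Srgap1 was not called in Per1-/- cells (-0.26). Of 8 axonal adhesion partners, 4 rose in each genotype, beside 20.8%, 20.8%, and 18.7% of all genes, and 1 fell in the libraries with the Per2-/- label. Cntn1, Nfasc, Alcam, and Chl1 rose by 3.27, 1.99, 1.51, and 0.94 on the log2 scale in WT cells.

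From day 2 to day 4 few members changed. In WT cells 2 of 59 rose and 1 fell, beside 1.62% and 1.59% of all tested genes. For Per1-/- cells 2 rose and 0 fell, beside 1.38% and 1.06%, and in the libraries with the Per2-/- label 2 rose and 1 fell, beside 2.32% and 1.74%. Plxnd1, the receptor for SEMA3E, was the member called in all 3 genotypes. It was at 7.66, 6.88, and 7.80 FPKM in WT cells on day 2 and at 16.2, 11.7, and 12.5 FPKM on day 4, at 10.1, 8.09, and 9.14 and then 18.9, 13.1, and 15.2 FPKM in Per1-/- cells, and at 6.90, 5.92, and 6.91 and then 14.9, 10.4, and 14.7 FPKM in the libraries with the Per2-/- label. The 9 libraries of day 4 all lay above the 9 of day 2. The log2 fold changes were 0.83, 0.77, and 1.00 (standard error 0.16, adjusted p = 0.0050, 0.0098, and 0.00125). Its Per1-/- call was lost without day 2 replicate 2 (adjusted p = 0.0709) or day 4 replicate 1 (adjusted p = 0.0643).

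Plxna2, which had risen by day 2, fell in WT cells to 5.54, 4.40, and 7.71 FPKM (log2 fold change -0.85, adjusted p = 0.0356) and in the libraries with the Per2-/- label to 3.96, 6.89, and 5.27 FPKM (-0.82, adjusted p = 0.0354). Per1-/- cells had 8.66, 6.03, and 7.26 FPKM (-0.67, adjusted p = 0.0981, not called). Slit1 rose further to 1.27, 1.17, and 1.66 FPKM in WT cells and 1.64, 1.86, and 1.73 FPKM in Per1-/- cells (log2 fold change 1.31 and 1.28, adjusted p = 0.0334 and 0.0403). In the libraries with the Per2-/- label, Sema3b rose from 3.05, 3.31, and 3.34 FPKM to 7.02, 5.55, and 7.07 FPKM (log2 fold change 0.99, adjusted p = 0.0275). When each of the 6 libraries of a comparison was left out in turn, the WT call of Slit1 held only without day 2 replicate 3 (adjusted p = 0.0499 to 0.133 over the 6 fits), and its Per1-/- call held in 0 of 6 (0.0718 to 0.12). The WT call of Plxna2 held only without day 2 replicate 2 or day 4 replicate 3 (adjusted p up to 0.186). Under the Per2-/- label, the calls of Plxna2 and Sema3b held only without day 4 replicate 2 (up to 0.159 and 0.115).

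Replicate numbers paired the libraries of days 2 and 4 in WT and Per1-/- cells. With the number as a block, 5 members rose and 2 fell in WT cells, beside 3.08% and 2.47% of all genes. Per1-/- cells had 5 that rose and 2 that fell as well, beside 2.75% and 2.14%. The members added in both were Sema3d and Sema3b, which rose, and Sema4g, which fell, together with Sema4d in WT cells and Plxna2 and Dcc in Per1-/- cells.

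Macrophage marker levels also differed between these days. The sum of 19 macrophage markers was 355 to 584 FPKM in WT cells on day 2 and 694 to 1210 on day 4, 701 to 1429 and then 1365 to 2427 in Per1-/- cells, and 204 to 431 and then 529 to 908 in the libraries with the Per2-/- label. On day 0 it was 154 to 1249 FPKM over all 9 libraries. Csf1r was at 2.69 to 24.1 FPKM on day 0, and no library had a macrophage marker sum near 0. With the mean of these markers as a covariate, an alternative added once the values were known, Plxnd1 was called in all 3 genotypes (0.64, 0.59, and 0.79). Slit1, Plxna2, and Sema3b were not called with it. Without and with the covariate, Slit1 was at 1.31 and 1.05 in WT cells (adjusted p in limma = 0.0334 and 0.0883) and at 1.28 and 1.03 in Per1-/- cells (0.0403 and 0.0964). Plxna2 was at -0.85 and -0.80 in WT cells (0.0356 and 0.0672) and at -0.82 and -0.76 under the Per2-/- label (0.0354 and 0.0731). Sema3b was at 0.99 and 0.89 under the Per2-/- label (0.0275 and 0.0664). The log2 difference of Sema4d between days 2 and 4, 1.44 in WT cells without the covariate (adjusted p = 0.0828), was 0.63 with it, and that of Plxnc1 was 0.67 without and 0.31 with it. Whether macrophages contribute to these results was not tested. The rise of Plxnc1 from day 0 to day 2 was called with the covariate as well, and 104 of the 107 calls of members from day 0 to day 2 were kept.

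**Figure D4:**
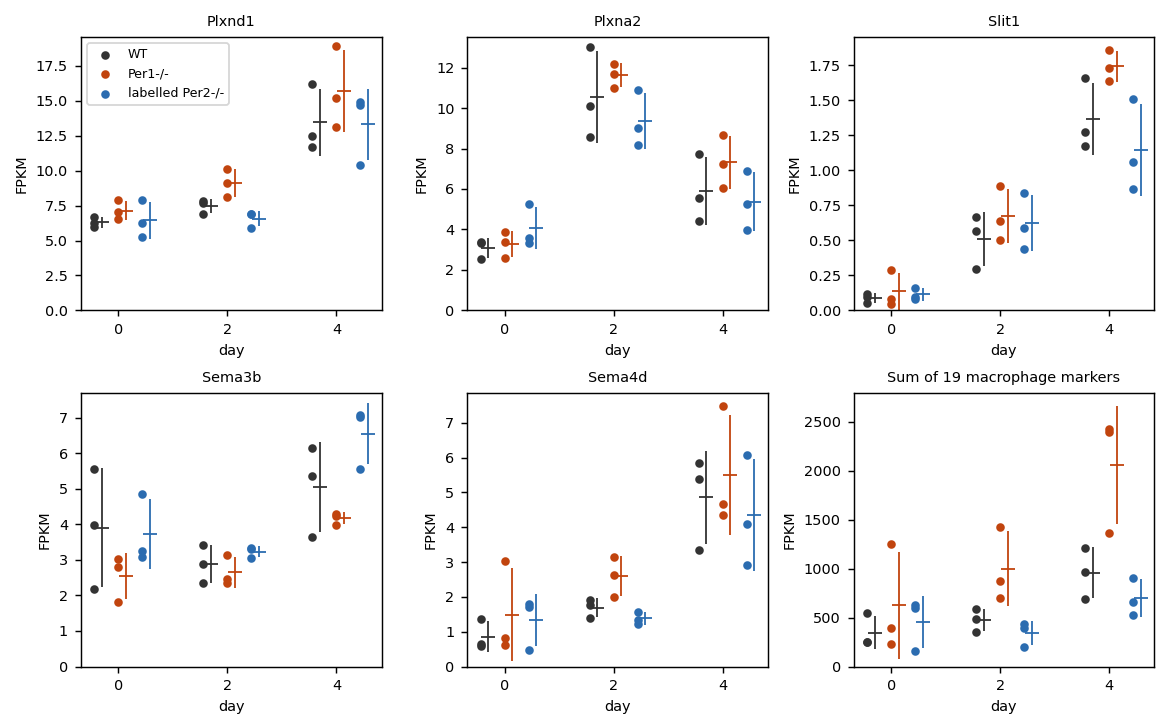
FPKM of Plxnd1, Plxna2, Slit1, Sema3b, and Sema4d and the summed FPKM of 19 macrophage markers on days 0, 2, and 4, where points are libraries and bars are the mean and SD of 3. Plxnd1 lies between 5.92 and 10.1 FPKM on day 2 and between 10.4 and 18.9 FPKM on day 4, and the macrophage sum is highest in Per1-/- cells on day 4.

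The axon guidance genes were also compared between the genotypes as labelled, where the Per1 RNA difference was not called and Per2 RNA was higher under the Per2-/- label. Of the 59 members, 0 were called in each of the 9 comparisons by limma, and voom weights on the fragments also gave 0 in each. Between Per1-/- and WT cells, 0.0134%, 0.0067%, and 0.0268% of all tested genes were called on days 0, 2, and 4. Between the libraries with the Per2-/- label and WT, the shares were 0.0067%, 0.0268%, and 0.0067%. Between Per1-/- cells and the libraries with the Per2-/- label, they were 0.0201%, 0.0737%, and 0.556%. At an unadjusted p under 0.05, 3, 0, and 2 members differed between Per1-/- and WT cells on days 0, 2, and 4, beside 719, 410, and 924 of all 14932 tested genes. Between the libraries with the Per2-/- label and WT there were 2, 1, and 2 members, beside 588, 429, and 511 genes. Between Per1-/- cells and the libraries with the Per2-/- label there were 8, 5, and 11 members, beside 892, 1228, and 1974 genes.

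The 95% interval of a member's log2 difference had a median half-width of 0.53, from 0.15 to 0.98. Between 37 and 52 of the 59 members had an interval within -1 and 1, depending on the comparison. Efna1 had the largest difference. On day 0 it was at 2.99, 1.24, and 1.15 FPKM in Per1-/- cells, at 4.00, 5.04, and 7.33 FPKM in the libraries with the Per2-/- label, and at 2.07, 4.94, and 1.85 FPKM in WT cells. Per1-/- cells had less than the libraries with the Per2-/- label by a log2 difference of -1.64 (95% interval -2.52 to -0.76, adjusted p = 0.407), which was not called. On day 4 the difference was -0.97 (adjusted p = 0.315).

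Robo2 on day 0 was at 0.329, 0.508, and 0.355 FPKM in Per1-/- cells and at 1.20, 0.556, and 2.21 FPKM in the libraries with the Per2-/- label (log2 difference -1.35, adjusted p = 0.61, not called). On day 2 Robo2 was at 9.21, 9.34, and 8.10 FPKM and at 8.96, 16.5, and 12.5 FPKM. Slit2 on day 0 was at 12.7, 12.6, and 9.84 FPKM in Per1-/- cells and at 14.8, 24.4, and 16.3 FPKM in WT cells (log2 difference -0.63, 95% interval -1.05 to -0.22, adjusted p = 0.786). On day 4 the lowest adjusted p of a member was that of Sema6a, which was at 6.54, 8.98, and 8.84 FPKM in Per1-/- cells and at 17.8, 12.0, and 10.1 FPKM in the libraries with the Per2-/- label (log2 difference -0.68, adjusted p = 0.168). Efna5 was next (-0.66, adjusted p = 0.176), and it was called without the library labelled Per2-/- day 4 replicate 2 (-0.94, adjusted p = 0.0372). On that day the macrophage sum was 1365 to 2427 FPKM in Per1-/- cells and 529 to 908 FPKM under the Per2-/- label, and its part in these differences was not tested.

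The change over time was compared between genotypes as well. For the change from day 0 to day 2, no member was called between Per1-/- and WT cells, beside 0% of all tested genes, and none between the libraries with the Per2-/- label and WT, beside 0%. For the change from day 2 to day 4, no member was called in either comparison, beside 0% and 0.0067%, and voom weights also gave 0 in all 4. At an unadjusted p under 0.05, 0, 1, 0, and 0 members differed in the change from day 0 to day 2 of Per1-/- cells and of the libraries with the Per2-/- label and in the change from day 2 to day 4 of both, in this order. Of all tested genes 306, 434, 182, and 194 did so. The 1 member was Sema5b, with a log2 difference of -1.16 (95% interval -2.25 to -0.08) between the changes in the libraries with the Per2-/- label and in WT cells. The half-widths of these intervals ranged from 0.22 to 1.39, so that members called in 1 or 2 genotypes from day 0 to day 2, such as Efna1, Unc5d, and Sema3e, were not shown to differ between them.

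**Figure D5:**
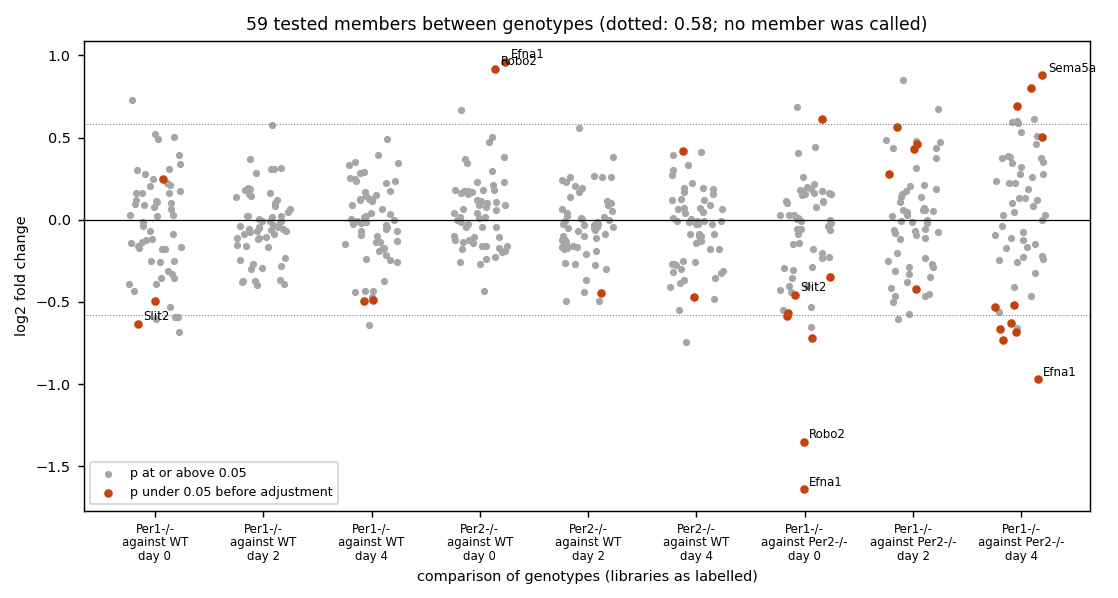
Log2 difference of the 59 tested members in the 9 comparisons of genotypes, 1 point per gene, with an unadjusted p under 0.05 in orange and dotted lines at the minimum size of 0.58 for a call. No member was called, and the farthest point is Efna1 at -1.64 between Per1-/- cells and the libraries with the Per2-/- label on day 0.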

How the data were processed

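The authors sequenced 27 nondirectional poly(A) libraries, aligned reads to GRCm38 (mm10 in the labels) with HISAT2 2.0.5, counted fragments per Ensembl gene with featureCounts 1.5.0-p3, and deposited FPKM for 54532 genes. Solving each FPKM for fragments with the deposited gene length gave whole numbers in 100% of values in every library (tolerance 0.01), with 15815013 to 24264097 fragments per library. The library factor solved in this way was not the fragment total. It was 0.8654 to 0.9255 times that total in the libraries of day 0 and 1.0322 to 1.0987 times on days 2 and 4. Gene lengths and positions (the other columns used) are as deposited.

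Groups came from the sample labels. After removing genes averaging under 0.5 FPKM, log2(FPKM + 0.1) of 14932 genes was fitted with limma 3.58.1 in R 4.3.3 (9 groups, mean-variance trend), and p-values were adjusted by Benjamini-Hochberg over all tested genes of each of 19 comparisons. Calls needed an adjusted p no higher than 0.05 and an absolute log2 change no smaller than 0.58. The labels call the replicates biological; what separates them (dish, embryos, or virus) is not given in the sources used here, and p-values measure the spread between them. The members and lists were chosen with earlier results of these data known. Values by library, or the range over the libraries of a day, were given for members called on day 2 in all genotypes, at most 3 up and 3 down per role by size in WT cells. In the lists, at most 4 genes per direction are named. Members given for day 4, for genotypes, or in addition were picked after their values were seen.

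Libraries of a genotype that share a replicate number deviated together on days 2 and 4 in WT cells (r = 0.127 to 0.196 across genes) and Per1-/- cells (0.140 to 0.284) and on days 0 and 2 in Per1-/- cells (0.150 to 0.294), where the numbers were taken as pairs. The procedure was tested on simulated data. Tables used pandas 2.3.3 and numpy 2.4.6 in Python 3.11.15, and plots matplotlib 3.10.9. Alternatives were other pseudocounts (0.01 and 1 FPKM), filters, a common FPKM sum, voom weights, the replicate block, fits on the groups compared, no minimum change, each library left out, and, added after seeing the data, the macrophage marker mean as a covariate. Items withheld for evaluation are not reported here.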

Additional observations from a re-analysis of the deposited data

Results flagged for a closer look

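Members with a mean under 0.5 FPKM entered no test, but 2 of the 7 stood above their day 0 level in all libraries of days 2 and 4. Ephb1, an EphB receptor, was at most at 0.111 FPKM on day 0 (1 to 12 fragments) and had a median of 0.375 FPKM on day 2 (39 to 63 fragments) and 0.402 FPKM on day 4 (37 to 112 fragments). Epha10 had 0 to 2 fragments per library on day 0, and its median was 0.0321 FPKM on day 2 (3 to 11 fragments) and 0.0872 FPKM on day 4 (7 to 20 fragments). Both were picked out by this separation, which was not tested. The share of all genes that separate in this way is not given here, so nothing is read from the count.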

How the results depend on the processing

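The counts of members called from day 0 to day 2 stayed within 1.5 times of those reported in all alternatives (other pseudocounts and filters, a common sum, voom weights, the replicate block, only the groups compared, no minimum fold change, the macrophage covariate). Without 1 library they were 34 to 42 in WT cells, 31 to 39 in Per1-/- cells, and 31 to 34 in the libraries with the Per2-/- label. The counts from day 2 to day 4 were small and moved. In WT cells 1 member was called with no filter on low values, 6 with voom weights, and 7 with the replicate block, and 1 to 2 without 1 library. In Per1-/- cells 1 was called with a pseudocount of 0.01 FPKM, 1 with a mean of at least 1 FPKM, 4 with voom weights, and 7 with the replicate block, and 0 to 1 without 1 library. In the libraries with the Per2-/- label 6 were called with the replicate block, where the numbers were not taken as pairs, and 1 to 5 without 1 library. Between genotypes, 0 to 1 members were called without 1 library on day 4 for Per1-/- cells against those with the Per2-/- label and 0 in all other such comparisons. The cause of these differences was not tested. The replicate block kept all 107 calls from day 0 to day 2, and in 48 of 54 searches a library correlated best with the library of its own number on another day. Of the 31 members called on day 2 in all genotypes, 25 lost no call without any 1 library. No member that was called from day 0 to day 2 changed sign under any alternative. With the macrophage covariate Ephb3 was called from day 2 to day 4 in all 3 genotypes. Day 0 values of Epha6, Dcc, Slit1, Sema3g, Sema5b, and Plxnb3 rest on few fragments, so their fold changes depend on the pseudocount, and with 1 FPKM 11 of the 107 day 2 calls were lost.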
